A study of Mus musculus with 20 samples.

Results

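Transcripts of 10 genes of mitophagy and autophagy were followed in cultured mouse macrophages kept in normal or low oxygen. The genes, out of 52636 in each expression table, were taken by symbol: the mitophagy receptors Bnip3, Bnip3l and Fundc1, the mitophagy kinase Pink1, the cargo adaptor Sqstm1, and the ATG8 proteins Map1lc3a, Map1lc3b, Gabarap, Gabarapl1 and Gabarapl2. The macrophages were grown for 6 days in L cell-conditioned medium from fetal livers of 5 mice expressing the ribosomal protein L10a fused to EGFP. There were 2 controls, WT-280 and WT-281 (Csf1r-iCre, HuR +/+), and 3 animals with the label of a conditional knockout, KO-84, KO-94 and also KO-179 (Csf1r-iCre, HuR fl/fl). Csf1r-iCre, which all 5 animals carried, expresses Cre recombinase under a promoter active in the macrophage lineage. The labels do not say in which cells the EGFP fusion was made. The livers were taken in midgestation; the labels give a slightly different embryonic day in 2 places. Plates of every animal were kept for 18 h in normoxia (20% O2) or hypoxia (1% O2), both with 5% CO2. From each lysate came a library of total RNA, called input, and one of RNA pulled down on tagged ribosomes, called TRAP for translating ribosome affinity purification, which gave 4 libraries per animal and 20 in all.

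Values are TPM, which are scaled for transcript length and sum to 1000000 in each library, so they can be compared between genes. Read numbers cannot be had from them, the depth is therefore unknown, and the spread between animals is the only measure of error. A library held 10243 to 12402 genes at 1 TPM or more, and all 10 genes reached this in all 20 libraries. A pair of input libraries stood apart. The hypoxia input library of WT-280 held 10364 such genes, against 11356 or more in the other input libraries, and had their lowest mitochondrial share of TPM, 2.00%. The normoxia input library of KO-84 had the highest mitochondrial share, 9.67%, against at most 5.97% in the others. Of 10 macrophage markers, 9 reached 1 TPM in every library, and their summed level was 7298 to 20972 TPM. Elavl1, which encodes HuR, did not have a lower mean log2 level in knockout-labelled libraries than in controls: its log2 difference from the controls was between 0.51 ± 1.04 (SE) in hypoxia input and 0.86 ± 1.04 in normoxia input (limma adjusted p = 0.909 and 1). With 1 animal left out at a time, the Elavl1 difference stayed above 0 in normoxia input (0.24 to 1.28) but ranged from -0.91 to 1.92 in hypoxia input, from -0.95 to 2.47 in normoxia TRAP and from -0.55 to 1.57 in hypoxia TRAP. It was negative in these 3 without WT-281, in both TRAP comparisons also without KO-94, and in hypoxia input also without KO-84. Genotype comparisons are therefore between labels. The labels do not say which exons were floxed, so it is not known whether a level over the whole gene can show the deletion.

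Mitophagy is the removal of mitochondria by autophagy. Receptors in the outer mitochondrial membrane (BNIP3, BNIP3L and FUNDC1) bind ATG8 proteins, small ubiquitin-like proteins that are coupled to a lipid of the growing autophagosome membrane. By another route, PINK1 accumulates on damaged mitochondria and phosphorylates ubiquitin, and adaptors such as p62, the product of Sqstm1, link ubiquitin-coated cargo to ATG8 proteins. Bnip3 and Bnip3l are known targets of the hypoxia-inducible factors (HIF) in mouse and human cells, while Sqstm1 is a known target of the oxidative stress factor NRF2.

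RefSeq promoter windows (GRCm38.p6, 250 bases before to 50 after the annotated start) were at hand for 8 of the 10 genes, all but Bnip3l and Map1lc3a. The windows of Bnip3 and Sqstm1 are shown because transcripts of these genes differed in opposite directions between hypoxia and normoxia. Capitals mark ACGTG or GCGTG, the cores of HIF-binding motifs, on either strand, so CACGT and CACGC are the same cores read on the other strand. The Bnip3 window lies at chr7:138909457-138909756 and the Sqstm1 window at chr11:50210771-50211070, both on the minus strand and printed 5′ to 3′.
Bnip3: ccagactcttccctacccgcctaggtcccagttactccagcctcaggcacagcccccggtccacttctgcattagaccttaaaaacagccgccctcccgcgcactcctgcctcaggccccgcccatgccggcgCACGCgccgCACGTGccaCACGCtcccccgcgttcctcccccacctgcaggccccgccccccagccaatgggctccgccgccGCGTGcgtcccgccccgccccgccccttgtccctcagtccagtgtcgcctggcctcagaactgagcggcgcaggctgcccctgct
Sqstm1: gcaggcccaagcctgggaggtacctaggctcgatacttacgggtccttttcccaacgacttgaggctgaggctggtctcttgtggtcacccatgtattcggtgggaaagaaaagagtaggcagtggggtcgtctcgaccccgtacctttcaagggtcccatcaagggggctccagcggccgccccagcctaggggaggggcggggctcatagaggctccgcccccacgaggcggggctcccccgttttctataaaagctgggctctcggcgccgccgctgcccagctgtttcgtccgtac

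In the Bnip3 window, CACGTG begins at position -108 from the start and holds ACGTG on both strands. CACGC begins at -117 and at -99, and GCGTG at -35. Since CACGTG is its own reverse complement, the 2 matches of ACGTG there overlap, and the same letters are the E-box motif. The Sqstm1 window holds neither core, nor the letters TGACNNNGC searched on both strands as the core of the antioxidant response element. Sequence outside the windows was not searched, so sites further from the start would be missed. Among the 8 windows, ACGTG was found in 3 (Bnip3, Gabarap and Gabarapl2), and either core in 5, with Pink1 and Map1lc3b added by GCGTG. Of 32851 mouse windows of the same length, 19.6% held ACGTG, 32.4% GCGTG, 43.8% either core, 7.15% CACGTG and 12.4% TGACNNNGC. TGACNNNGC was found in the Map1lc3b window among the 8.

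The 10 genes differed widely in abundance. Gabarap was the most abundant, with 1174 ± 282 TPM in input and 1421 ± 407 TPM in TRAP (SD, n = 10 libraries), rank 107 of 13901 and 96 of 13522 genes by mean. Sqstm1 followed with 498 ± 199 TPM in input and 339 ± 123 TPM in TRAP, then Bnip3 with 165 ± 79.6 and 215 ± 216 TPM. The means of Gabarap and Sqstm1 lay apart by more than the larger of their SDs in both fractions, while those of Sqstm1 and Bnip3 did so in input but not in TRAP.

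Below them, neighbouring means in input differed by less than the larger SD of the pair. The order there went on with Map1lc3b (87.7 ± 28.8 TPM), Gabarapl2 (73.4 ± 12.1), Bnip3l (72.1 ± 31.3), Map1lc3a (65.3 ± 15.7), Fundc1 (52.4 ± 20.2), Gabarapl1 (36.1 ± 25.2) and Pink1 (17.1 ± 6.27). In TRAP it was Map1lc3b (126 ± 47.4 TPM), Gabarapl2 (90.5 ± 21.9), Bnip3l (79.6 ± 37.4), Fundc1 (65.8 ± 25.3), Map1lc3a (61.8 ± 11.3), Gabarapl1 (26.8 ± 11.2) and Pink1 (8.72 ± 5.43), where the steps from Map1lc3a to Gabarapl1 and from Gabarapl1 to Pink1 were larger than the larger SD and the others were not. The steadiest transcript in input was Gabarapl2, whose highest library was 1.70 times its lowest, and the most variable was Gabarapl1 with a 29.9-fold range. In TRAP, Bnip3 had the widest range, 17.2-fold.

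**Figure D1:**
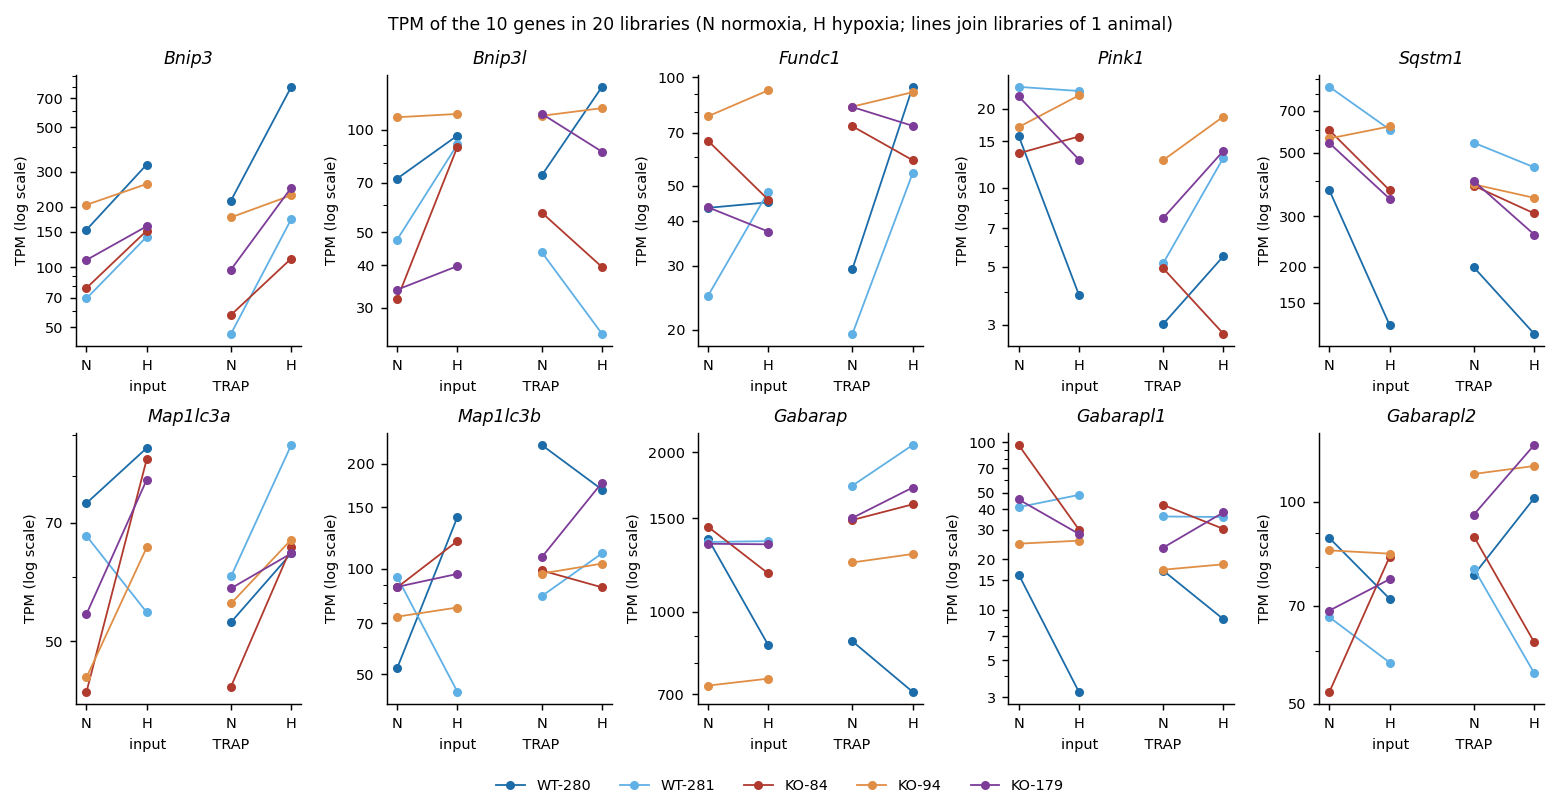
TPM of each gene (log axis, own scale per panel) in normoxia (N) and hypoxia (H) for input and TRAP; each line joins the libraries of 1 animal. All 10 lines of Bnip3 go up from normoxia to hypoxia, and 9 of 10 lines of Sqstm1 go down.

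Bnip3, which encodes the receptor best known as hypoxia-inducible, was higher in hypoxia than in normoxia in all 5 animals and in both fractions. In input it measured 154 (WT-280), 69.6 (WT-281), 78.5 (KO-84), 205 (KO-94) and 108 TPM (KO-179) in normoxia, and 326, 142, 152, 260.3 and 159.9 TPM in hypoxia in the same order. The animals differed widely and the 2 sets of 5 overlapped, but each animal's hypoxia value was the higher. In TRAP the normoxia values were 215, 46.3, 57.6, 177 and 97.1 TPM and the hypoxia values 797, 174, 110.2, 228 and 249 TPM.

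The ratio of hypoxia to normoxia for Bnip3 was 2.12, 2.04, 1.94, 1.27 and 1.47 in input, and 3.70, 3.74, 1.91, 1.29 and 2.57 in TRAP. It was smallest in KO-94 in both fractions. In that animal the normoxia and hypoxia libraries were also the most alike over all genes, with a Pearson correlation across genes of 0.980 in input and 0.961 in TRAP, against 0.870 to 0.946 in the other animals. The library with the highest Bnip3 level, WT-280 hypoxia TRAP, stood far above the other 4 hypoxia TRAP libraries, whose mean was 190.4 ± 62.2 TPM (SD, n = 4).

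None of the Bnip3 differences passed the genome-wide test. In limma, a linear model with moderated variances fitted to log2(TPM + 1) over all genes, the mean log2 difference between hypoxia and normoxia was 0.79 ± 0.38 (SE, n = 5 animals) in input and 1.28 ± 0.53 in TRAP, both with a limma adjusted p of 1 by Benjamini-Hochberg. With the animal as a block, which the shared animal numbers allow, the SE was 0.15 in input and 0.19 in TRAP and the limma adjusted p 0.577 and 0.832. An exact two-sided sign-flip test over the 5 animals gave p = 0.0625 in each fraction, the smallest p that 5 animals can give. The design thus cannot pass 0.05 for a single gene in this exact test.

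The background shows how common such a direction was. Of all genes tested, 2.41% were higher in hypoxia in 5 of 5 animals in input and 3.45% in TRAP, and 35 genes, 0.236% of 14842, were so in both fractions. Among the 10 genes, Bnip3 and Bnip3l met the condition in input, Bnip3 and Map1lc3a in TRAP, and Bnip3 alone in both. Across the 14 HIF reference genes, the list of established HIF targets set beside Bnip3, the median log2 difference was 0.39 in input and 0.53 in TRAP, where the median over all genes was -0.13 and 0.02. By animal the HIF median in input was 0.04 in WT-280, 0.73 in WT-281, 0.45 in KO-84, 0.15 in KO-94 and 0.43 in KO-179, so WT-280, with the largest Bnip3 ratio in input, had the lowest HIF median there. In TRAP it was 0.53, 1.21, 0.54, 0.12 and 0.57 in the same order, and was lowest in KO-94, as for Bnip3. The HIF medians are not set against each animal's own background. In input the median over all genes was itself -0.42 in WT-280 and -0.09 in WT-281, each from the fit without the other control. Its part in the order of the animals was not tested. In bulk RNA, a change in the share of cells that express a gene and a change in RNA per cell cannot be told apart.

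**Figure D2:**
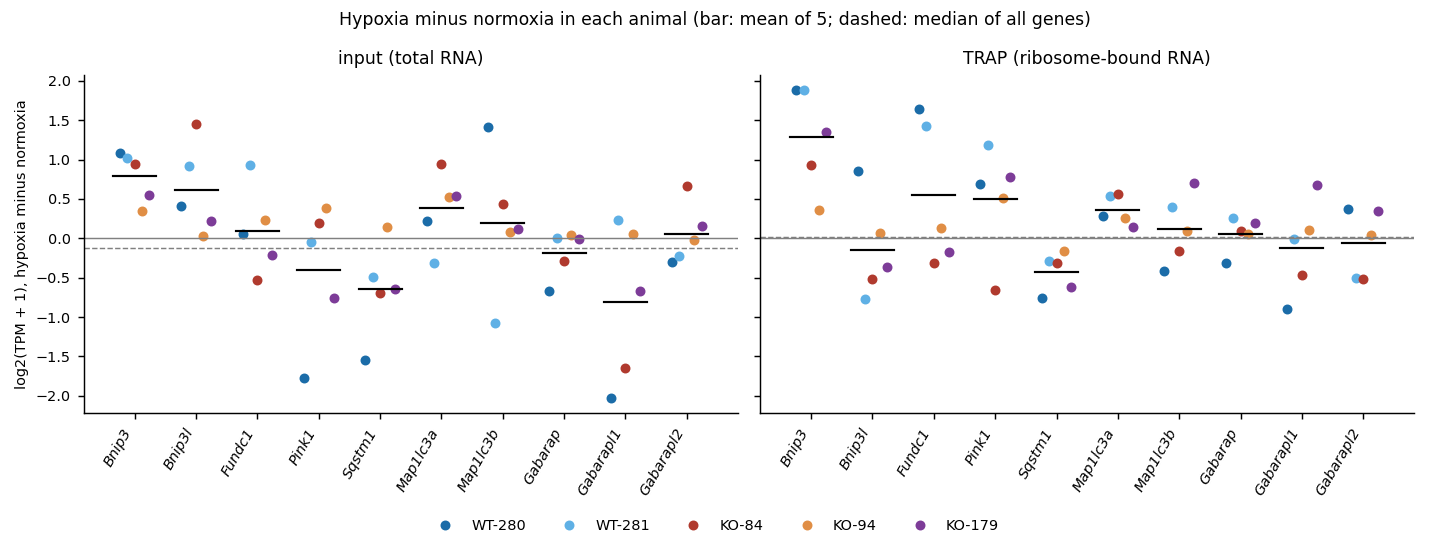
Hypoxia minus normoxia of log2(TPM + 1) for each gene and animal in input (left) and TRAP (right); black bars are means of 5 animals and the dashed line the median of all genes. All 5 points of Bnip3 lie above 0 in both fractions and all 5 of Sqstm1 below 0 in TRAP, while Fundc1 in TRAP is far above 0 in the 2 controls alone.

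Bnip3l, also called Nix, encodes the close relative of BNIP3 that removes mitochondria from maturing red blood cells. In input it measured 71.9, 47.6, 31.9, 109 and 33.9 TPM in normoxia and 96.2, 90.6, 89.1, 111 and 39.8 TPM in hypoxia (order WT-280, WT-281, KO-84, KO-94, KO-179). Every animal was higher in hypoxia, from 1.02-fold in KO-94 to 2.79-fold in KO-84, and the 2 sets overlapped. In TRAP the normoxia values were 73.5, 43.7, 57.1, 109.9 and 111 TPM and the hypoxia values 134, 25.2, 39.6, 116 and 86.2 TPM, higher in 2 animals and lower in 3.

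The mean log2 difference of Bnip3l was 0.61 ± 0.42 (SE) in input and -0.15 ± 0.48 in TRAP (limma adjusted p = 1 in both). The exact sign-flip test gave p = 0.0625 in input, again its smallest value, and 0.688 in TRAP. Without KO-84 the input difference was 0.40. Transcripts of red cell precursors, which fetal liver holds in number, were at or near 0. Of 10 erythroid markers, 6 were at 0 in all 20 libraries, among them the globin gene Hbb-bt and the heme synthesis gene Alas2. The summed erythroid level was 0 to 5.08 TPM.

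Bnip3 exceeded Bnip3l in every input library, by 1.46 to 3.20 times in normoxia and 1.56 to 4.02 times in hypoxia. In TRAP the ratio was 0.872 to 2.93 in normoxia and 1.97 to 6.89 in hypoxia. The ratio in TRAP was thus higher in hypoxia than in normoxia in all 5 animals: 5.96 against 2.93 in WT-280, 6.89 against 1.06 in WT-281, 2.79 against 1.01 in KO-84, 1.97 against 1.61 in KO-94 and 2.89 against 0.872 in KO-179. In input it was higher in hypoxia in 4 animals and lower in KO-84.

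Fundc1 encodes a receptor whose binding to ATG8 proteins is known to be set by phosphorylation in hypoxia. In input its level in hypoxia was higher in 3 animals and lower in 2, with a mean log2 difference of 0.09 ± 0.35 (SE; limma adjusted p = 1). Its TRAP values split by genotype label and are given with that comparison. Pink1, the kinase gene, was the least abundant of the 10. In input it measured 15.7, 24.2, 13.5, 17.0 and 22.2 TPM in normoxia and 3.90, 23.3, 15.6, 22.4 and 12.8 TPM in hypoxia. The mean log2 difference was -0.40 ± 0.46 in input and 0.50 ± 0.57 in TRAP (limma adjusted p = 1 in both), and the input difference was 0.063 without the hypoxia library of WT-280, one of those that stood apart, where Pink1 was at 3.90 TPM.

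Sqstm1, the p62 gene, was lower in hypoxia in 9 of 10 pairs of libraries. In input it measured 369.6, 847, 598, 560.4 and 539.5 TPM in normoxia and 126, 602, 369.8, 617 and 346 TPM in hypoxia. It was lower in 4 animals and higher in KO-94. In TRAP the normoxia values were 199, 541, 383, 388 and 398 TPM and the hypoxia values 117, 445, 307, 348 and 259 TPM, lower in all 5 animals, with overlapping sets.

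The hypoxia to normoxia ratio of Sqstm1 in TRAP ranged from 0.588 in WT-280 to 0.898 in KO-94. The mean log2 difference was -0.65 ± 0.41 (SE) in input and -0.43 ± 0.39 in TRAP (limma adjusted p = 1 in both). The input difference was -0.42 without WT-280 and -0.20 without the hypoxia input library of that animal alone, which had the lowest Sqstm1 level in input. With the animal as a block, the adjusted p was 0.612 in input and 0.832 in TRAP. In TRAP, 2.80% of all genes were lower in hypoxia in 5 of 5 animals, and Sqstm1 was the 1 of the 10 that met this. In input 7.02% of genes were so and none of the 10. The 8 NRF2 reference genes, the group to which Sqstm1 is related as a known target, had a median log2 difference of -0.64 in input and -0.43 in TRAP, with 7 of 8 below 0 in each. The median over all genes was -0.13 and 0.02, and the share of all genes below 0 was not counted. By animal the NRF2 median ran from -1.15 in WT-280 to 0.03 in KO-179 in input. In TRAP it ran from -0.58 in KO-84 to 0.01 in WT-281. None of the 8 passed the test.

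Among the ATG8 genes, Map1lc3a was the 1 whose hypoxia and normoxia sets did not overlap. In TRAP it measured 52.8, 60.1, 43.9, 55.7 and 58.1 TPM in normoxia and 64.2, 87.4, 65.3, 66.8 and 64.2 TPM in hypoxia, so that every hypoxia library was above every normoxia library. Complete separation of this kind in the same direction was met by 15 genes in TRAP, 0.111% of those tested. None of the 10 genes was separated in input (0.0360% of genes higher and 0.266% lower in hypoxia), and none was separated downward in TRAP (0.0813%). In input the values were 74.1, 67.5, 43.3, 45.1 and 54.0 TPM in normoxia and 86.6, 54.3, 83.9, 65.3 and 79.2 TPM in hypoxia, higher in 4 animals and lower in WT-281, and the sets overlapped.

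The mean log2 difference of Map1lc3a was 0.38 ± 0.29 (SE) in input and 0.35 ± 0.31 in TRAP (limma adjusted p = 1 in both). As elsewhere unless a block is named, this SE takes no account of the pairing by animal. With the animal as a block, no member passed, and the lowest limma adjusted p was 0.577 in input and 0.832 in TRAP. The 5 within-animal differences of Map1lc3a had an SD of 0.46 in input and 0.18 in TRAP. Ratios in TRAP were between 1.10 in KO-179 and 1.49 in KO-84. Its product LC3A belongs to the LC3 branch of ATG8 proteins. Map1lc3b encodes LC3B, the ATG8 protein most used to mark autophagosomes, and was higher in hypoxia in 7 of 10 pairs, without passing the test in either fraction.

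Transcripts of the GABARAP branch showed no common direction. Gabarap measured 1375, 1354, 1447, 726 and 1344 TPM in normoxia input and 866, 1359.5, 1182, 748 and 1341 TPM in hypoxia input, a log2 difference of -0.18 ± 0.31 (limma adjusted p = 1). It was -0.05 without the hypoxia input library of WT-280 and -0.07 without the normoxia input library of KO-84. WT-280 was 0.630 times its normoxia level, WT-281, KO-94 and KO-179 lay within 1.03 times of it, and KO-94 was low in both conditions. In TRAP, Gabarap was higher in hypoxia in 4 of 5 animals, by at most 1.19 times, and lower in WT-280. Gabarapl2 was higher in hypoxia in 5 of 10 pairs and lower in 5.

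Gabarapl1, whose product is also called GEC1, gave the most uneven values. In input it measured 16.2, 41.0, 96.6, 24.8 and 45.6 TPM in normoxia and 3.22, 48.6, 30.2, 25.9 and 28.4 TPM in hypoxia. The low value was that of WT-280 in hypoxia and the high value that of KO-84 in normoxia, the same input libraries that stood apart over all genes. The log2 difference was -0.81 ± 0.61 in input and -0.12 ± 0.48 in TRAP (limma adjusted p = 1 in both). The input difference was -0.10 without the WT-280 library and -0.51 without the KO-84 library.

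Gabarap made up most of the ATG8 transcripts in every library. Of the summed TPM of the 5 genes it took 81.1% ± 5.77 (SD, n = 20 libraries), from 67.3% to 87.7%. Map1lc3b took 7.24% ± 3.93, Gabarapl2 5.52% ± 1.97, Map1lc3a 4.23% ± 1.33 and Gabarapl1 1.97% ± 1.12. Gabarap exceeded the next most abundant ATG8 gene by 3.89 to 23.6 times. The lowest shares of Gabarap, 67.3% and 70.2%, were in the 2 TRAP libraries of WT-280, where Map1lc3b took 16.1% and 18.0%. The summed ATG8 level in input was 1503 ± 311 TPM in normoxia and 1371 ± 271 TPM in hypoxia (SD, n = 5), and in TRAP 1663 ± 283 and 1789 ± 504 TPM, differences below the spread between animals.

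**Figure D3:**
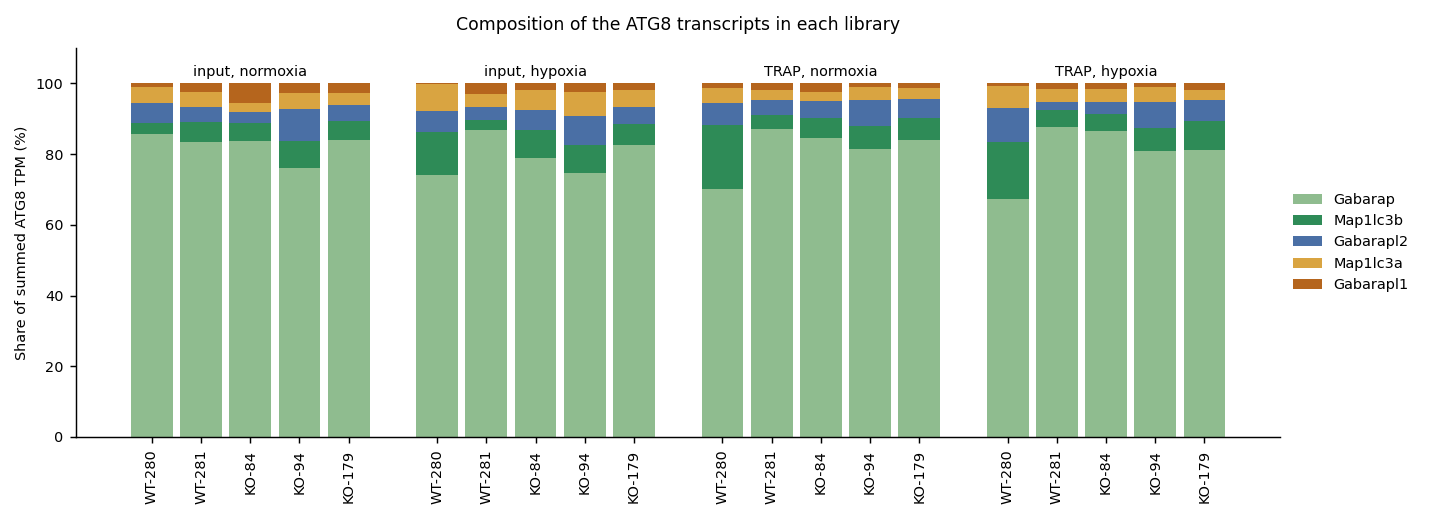
Share of each of the 5 ATG8 genes in their summed TPM (%, stacked to 100) in every library. Gabarap takes 67.3% to 87.7% of each bar, with the lowest shares in the TRAP libraries of WT-280.

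TRAP and input were then compared within each of the 10 lysates, which asks how much of each transcript was on tagged ribosomes relative to its total level. Sqstm1 was lower in TRAP than in input in 10 of 10 lysates, with a ratio of 0.539 to 0.933 and a median of 0.715. A direction shared by all 10 lysates was met by 481 genes for lower TRAP (3.24%) and 113 genes for higher TRAP (0.761%). None of the 10 genes was higher in TRAP in every lysate, nor in all 5 lysates of normoxia (2.96% of genes) or hypoxia (2.32%). Since the median gene was itself lower in TRAP, by a log2 difference of -0.28 in normoxia and -0.13 in hypoxia, the values for Sqstm1 are to be read against it: -0.63 ± 0.43 (SE) in normoxia and -0.41 ± 0.43 in hypoxia (limma adjusted p = 0.632 and 1). These SEs, like those of Pink1 below, take no account of the pairing by lysate. The 5 within-lysate differences of Sqstm1 had an SD of 0.17 in normoxia and 0.27 in hypoxia. Without the hypoxia input library of WT-280 the hypoxia value was -0.86.

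Pink1 had the lowest ratio of TRAP to input, with a median of 0.461. In normoxia its TRAP values were 3.02, 5.15, 4.93, 12.7 and 7.66 TPM, all below the input values of the same lysates. In hypoxia they were 5.48, 13.0, 2.78, 18.6 and 13.8 TPM, below input in 3 lysates and above it in WT-280 and KO-179. The log2 difference between TRAP and input was -1.44 ± 0.52 in normoxia (limma adjusted p = 0.387) and -0.54 ± 0.52 in hypoxia (adjusted p = 1). The hypoxia value was -0.9998 without the hypoxia input library of WT-280 and -0.14 without KO-84. In normoxia 14.7% of all genes were lower in TRAP in 5 of 5 animals, and in hypoxia 8.18%. Pink1 and Sqstm1 were the members so in normoxia, and Sqstm1 in hypoxia.

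With the lysate as a block, the normoxia differences of Sqstm1 and Pink1 had adjusted p = 0.0573 and 0.0696, closest to the threshold of all member tests. Under that block 236 genes passed in normoxia and 52 in hypoxia, against 40 and 21 without it. Gabarap, Map1lc3b, Gabarapl2, Fundc1 and Bnip3l were higher in TRAP in 7 or 8 of 10 lysates, with median ratios of 1.28, 1.27, 1.33, 1.11 and 1.03, and none passed. The difference between hypoxia and normoxia in the TRAP to input ratio did not pass for any of the 10 genes. The TRAP to input ratio of Bnip3 was between 0.666 and 2.45, and below 1 in 6 of 10 lysates. Markers of macrophages and of fibroblasts were also read in this comparison. Of 10 macrophage markers, 4 (Adgre1, Csf1r, Itgam and Ctss) were lower in TRAP in 10 of 10 lysates, as were 3.24% of all genes. The median of the 10 was -0.36 in normoxia and -0.25 in hypoxia, with none passing. The median of all genes was -0.28 and -0.13. In normoxia all 10 macrophage markers were below 0, and in hypoxia 7 were below and 3 above. Of 8 fibroblast markers tested, 5 were lower in 10 of 10, with medians of -1.79 and -1.61, and Acta2, the smooth muscle actin gene, passed in both conditions. The part of either in the member values was not tested.

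**Figure D4:**
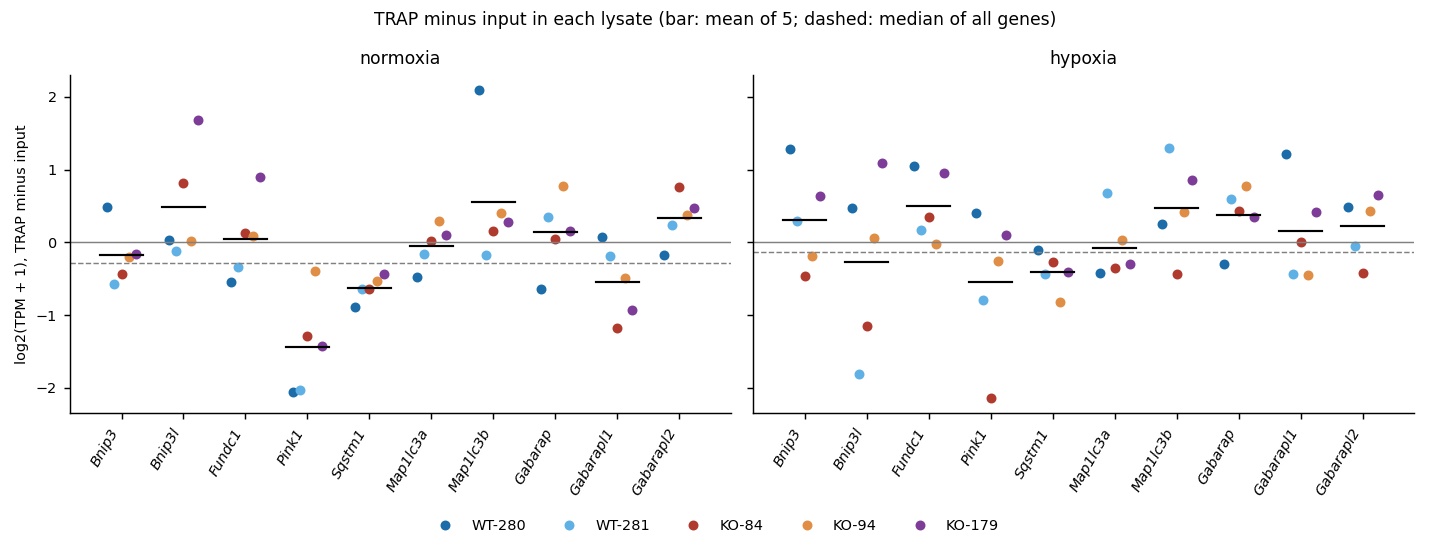
TRAP minus input of log2(TPM + 1) for each gene in the lysates of normoxia (left) and hypoxia (right); black bars are means of 5 animals and the dashed line the median of all genes. All Sqstm1 points lie below 0, and all Pink1 points do in normoxia.

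The genotype labels differ at the gene of HuR, a protein that binds AU-rich mRNA elements. Since the Elavl1 values do not show its loss, the values are compared between labels. Fundc1 had the estimate furthest from 0. In normoxia TRAP its level was 29.5 and 19.5 TPM for WT-280 and WT-281 but 73.1, 82.8 and 82.6 TPM for KO-84, KO-94 and KO-179, with no overlap. In hypoxia TRAP the values were 93.9 and 54.2 TPM against 58.8, 90.8 and 73.3 TPM, and the groups overlapped. In normoxia input the knockout-labelled libraries (66.6, 77.8 and 43.6 TPM) were also all above the controls (43.4 and 24.8 TPM), though KO-179 and WT-280 differed by less than 1 TPM.

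The log2 difference of Fundc1 between labels was 1.69 ± 0.48 (SE) in normoxia TRAP (limma adjusted p = 0.769), 0.03 ± 0.48 in hypoxia TRAP and 0.87 ± 0.51 in normoxia input (adjusted p = 1 in both). The hypoxia difference in TRAP was 1.54 ± 0.53 in controls and -0.12 ± 0.43 in knockout-labelled animals. The interaction, which tests the difference between these 2, was -1.65 ± 0.68 (limma adjusted p = 1). All knockout-labelled libraries lay above both controls for 9.85% of genes in normoxia TRAP and for 9.42% in normoxia input. Of the 10 genes this was true of 2, Fundc1 and Gabarapl2, in TRAP and of Fundc1 in input, so the count is near the background.

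Gabarapl2 measured 77.9 and 79.5 TPM in control and 88.8, 110.1 and 95.8 TPM in knockout-labelled normoxia TRAP, a log2 difference of 0.31 ± 0.49 (limma adjusted p = 0.958). In hypoxia input its knockout-labelled libraries were again all above the controls, at 0.33 ± 0.41 (adjusted p = 0.835), where 18.4% of all genes were so and the median gene was 0.36 higher. Quantile normalization, which gives all libraries the same distribution, brings that median to 0.0050 by its design. Map1lc3a was lower in all knockout-labelled libraries of normoxia input, at -0.57 ± 0.41 (adjusted p = 1), as were 5.75% of genes. No member had its knockout-labelled libraries all below the controls in hypoxia input (4.48% of genes), normoxia TRAP (9.67%) or hypoxia TRAP (6.94%), or all above them in hypoxia TRAP (9.36%).

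For Bnip3 the hypoxia TRAP difference between labels was -1.01 ± 0.76 (limma adjusted p = 1), and it was 0.09 without WT-280. The interaction in TRAP had an adjusted p of 1 (limma). The ratio of hypoxia to normoxia in TRAP was 3.70 and 3.74 in the 2 controls and 1.29 to 2.57 in the 3 knockout-labelled animals. The share of all genes whose ratios separate by label in this way was not counted, so no difference in response is read from it. Fibroblast markers were lower in sum in knockout-labelled libraries too, except that the labels overlapped in hypoxia TRAP. Their summed level in normoxia input was 562 to 842 TPM in controls and 166 to 343 TPM in knockout-labelled libraries, and in normoxia TRAP 157 to 202 and 24.4 to 93.3 TPM. In hypoxia it was 523 to 546 and 110.1 to 415 TPM in input, and 110.5 to 211 and 13.9 to 145 TPM in TRAP. Of the 9 fibroblast markers, 2 reached 1 TPM in every library and none was at 0 in all. Their part in the genotype differences was not tested.

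**Figure D5:**
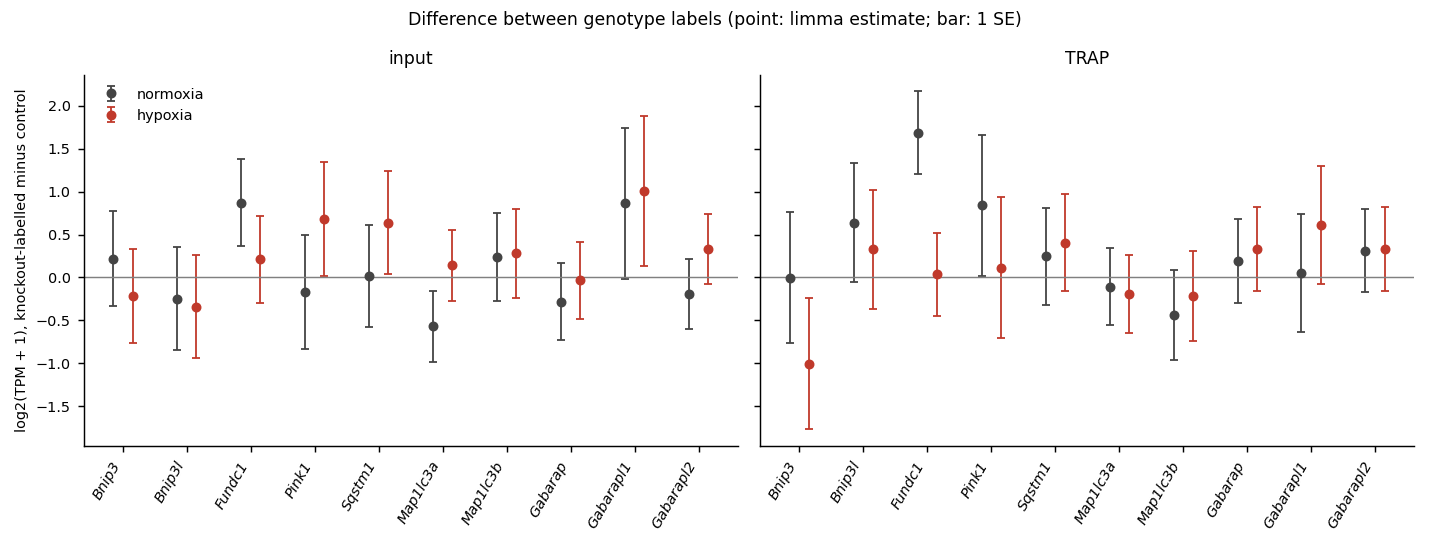
Difference in log2(TPM + 1) between knockout-labelled and control libraries for each gene in input (left) and TRAP (right); points are limma estimates, bars 1 SE, grey normoxia and red hypoxia. Fundc1 in normoxia TRAP is the estimate furthest from 0, at 1.69 ± 0.48.

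Over all 15 comparisons, none of the 150 limma tests of the 10 genes passed an adjusted p under 0.05, and 6 had an unadjusted p under 0.05, where 3.44% of all tests did. In 11 comparisons that allow a block for animal or lysate, none of 110 passed and 19 had an unadjusted p under 0.05, against 8.12% of all tests. In the hypoxia comparisons and the genotype comparisons no gene of the whole table passed. In TRAP against input 0.270% of genes did in normoxia and 0.141% in hypoxia, or 1.59% and 0.350% with the lysate as a block. A p that misses the threshold does not show that levels were alike.

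The rest of the pathway was read from 6 lists. None of the 20 other mitophagy genes, 11 other cargo adaptors, 17 initiation and nucleation genes, 11 genes of ATG8 and ATG12 conjugation, 14 autophagosome fusion genes and 8 transcription factors of autophagy genes passed in any comparison. The median log2 difference between hypoxia and normoxia in input was -0.08 for the other mitophagy genes, -0.12 for the cargo adaptors, -0.07 for initiation, -0.32 for conjugation, -0.27 for fusion and -0.32 for the transcription factors, where all genes had -0.13. In TRAP the medians were 0.22, -0.35, -0.14, 0.23, 0.07 and 0.11, where all genes had 0.02.

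Of these 81 genes, 1 went the same way in 5 of 5 animals in both fractions. Snap29, which encodes a SNARE protein of autophagosome fusion with lysosomes, was 19.3 ± 1.96 TPM in normoxia and 13.5 ± 5.13 TPM in hypoxia in input (SD, n = 5), and 19.6 ± 5.15 and 11.6 ± 4.10 TPM in TRAP. Over all genes, 0.371% were lower in hypoxia in every animal in both fractions. Among the HIF reference genes, 3 of 14 were higher in every animal in both. Ankrd37, an ankyrin repeat gene strongly induced by HIF, was 18.7 ± 11.4 and 62.6 ± 22.5 TPM in input and 26.0 ± 18.0 and 87.4 ± 31.2 TPM in TRAP. P4ha2, a collagen prolyl hydroxylase subunit, was 11.04 ± 4.63 and 15.6 ± 4.55 TPM in input and 1.83 ± 2.51 and 10.97 ± 6.35 TPM in TRAP, near the filter on low values in normoxia TRAP. It was also the 1 HIF reference gene of 14 that passed in TRAP against input, as lower in TRAP in normoxia. Ero1l, an oxidase of the endoplasmic reticulum, was 47.1 ± 17.4 and 64.5 ± 30.5 TPM in input and 28.9 ± 5.46 and 47.8 ± 23.2 TPM in TRAP.

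Relative to input, TRAP was lower in 10 of 10 lysates for 3.24% of all genes and for 5 of the 81. They were Fkbp8, a mitophagy receptor; Ambra1, a regulator of autophagy initiation; Tax1bp1, a cargo adaptor like p62; and Vps18 and Vps39, subunits of complexes that tether lysosomes, all named after their values were seen. None of the 81 was higher in 10 of 10, where 0.761% of all genes were. In hypoxia input, 72 of the 81 genes (88.9%) had an estimate above 0 for knockout-labelled against control, where 69.7% of all genes did and no gene passed. List medians were 0.52 to 0.79 against 0.36 for all genes. Quantile normalization brings the median of all genes near 0 by its design (0.0050), and list medians were not computed under it.

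By the likeness rule, the 5 genes whose log2(TPM + 1) correlated most with Bnip3 over the 20 libraries were taken from 6256 genes with a mean of at least 10 TPM. These libraries come from 5 animals and are not independent, so the values are a description. Kitl, the ligand of the receptor KIT, had a Pearson r of 0.91 and Polr2d, a subunit of RNA polymerase II, 0.88. Gm45507 followed with 0.87, Serpinb1c, a serine protease inhibitor gene, with 0.86, and Cd14, the lipopolysaccharide co-receptor of macrophages, with 0.84. The Spearman values of these 5 were 0.81, 0.86, 0.77, 0.88 and 0.84. Since these genes were picked by likeness to Bnip3, which was higher in hypoxia in every pair, their direction is not separate evidence. Gm45507 was higher in hypoxia in 5 of 5 animals in both fractions, as Bnip3 was. Kitl and Serpinb1c were higher in 4 animals in each fraction, Polr2d in 4 in input and 5 in TRAP, and Cd14 in 4 in input and 3 in TRAP.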

How the data were processed

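RNA was measured in 20 poly(A)-enriched libraries. Per the submitters' processing notes, HISAT, DESeq2 and GRCm38 were used; versions and roles are not given in the sources used here. The deposited tables were read as TPM because each library sums to 1000000; another 10 columns per table, ratios by animal, were left aside. Fits used limma 3.58.1 (R 4.3.3, variance trend) on log2(TPM + 1). Genes had to reach 1 TPM in 2 or more libraries, which left 13901 for input, 13522 for TRAP and 14842 for the joint fit for TRAP against input. All groups of a fit shared 1 variance; p-values were two-sided, adjusted by Benjamini-Hochberg over all genes of a comparison. Tables and plots were made in Python 3.11.15 (matplotlib 3.10.9, numpy 2.4.6, pandas 2.3.3). The pipeline was tested on simulated data, where most of the smallest changes did not pass. Most middle-sized changes between hypoxia and normoxia did not pass either, nor did most changes of any size between labels in normoxia input. With the animal as a block, most changes of any size between hypoxia and normoxia in TRAP did not pass. The simulated libraries held no pairing by animal, so this cannot show what the block does with paired libraries.

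The members, gene lists and comparisons were chosen with earlier results of these data known. Named were the 10 members, list genes that passed or went the same way in every animal in both fractions, the 5 genes most like Bnip3, and Elavl1; other list genes are said to be named after their values were seen. One gene of the erythroid marker list is not reported here. Gene positions and promoters are from RefSeq, GRCm38.p6.

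Libraries with 1 number come from 1 animal, so the numbers pair them. Deviations from group means in normoxia and hypoxia correlated at 0.28 to 0.76 in input and 0.23 to 0.58 in TRAP. The labels do not say whether libraries of an animal came from separate cultures. No batch is given in the labels.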

Additional observations from a re-analysis of the deposited data

Results flagged for a closer look

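The 5 animals of each gene, oxygen level and fraction made 40 sets, which were chosen after seeing the data, and in 5 of them 1 library lay far from the other 4. For independent and normally distributed values, chance alone would set apart about 1 in 20 of such sets. These sets hold unlogged TPM and share libraries, so the rate for them is not known. Bnip3 was 797 TPM in hypoxia TRAP of WT-280, with the others between 110.2 and 249 TPM. Map1lc3b was 226 TPM in normoxia TRAP of the same animal, with the others between 83.6 and 108 TPM. Map1lc3a was 87.4 TPM in hypoxia TRAP of WT-281, above 64.2 to 66.8 TPM in the others. Fundc1 was 91.8 TPM in hypoxia input of KO-94, above 37.4 to 48.1 TPM. Gabarap was 726 TPM in normoxia input of KO-94, below 1344 to 1447 TPM. These sets mix both genotype labels.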

How the results depend on the processing

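None of the 344 recomputed values of the 28 member differences in the text passed, under pseudocounts of 0.1 and 5, no filter, quantile normalization, no variance trend, only the libraries compared, the replicate block or leaving out animals or single input libraries. The lowest adjusted p was 0.0573, with the replicate block, and 337 values kept their direction. These 28 were picked for printing after their values were seen. Over all 150 member differences, 132 of 1890 recomputed values changed direction, in 80 differences, and 0 passed. Pink1 in input turned to 0.063 without the hypoxia input library of WT-280. Without 1 animal or 1 of the 2 input libraries that stood apart, 17 of the 28 moved by over 1.5 times or turned. With 1 animal left out at a time, 5 differences turned. Bnip3l in TRAP ranged from -0.40 to 0.011, Gabarapl1 in TRAP from -0.32 to 0.076, and Fundc1 in input from -0.12 to 0.25. Between labels in hypoxia TRAP, Fundc1 ranged from -0.36 to 0.43 and Bnip3 from -2.10 to 0.088, positive without WT-280. Where a control was left out, the remaining one was assumed to vary like the other groups. Without KO-94, Sqstm1 became the 1 member lower in hypoxia in every animal in input, an alternative chosen after seeing the data, as were those of the sign-flip test.

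Counts of passing genes over the whole table moved more. With the replicate block, TRAP against input gave 236 genes in normoxia and 52 in hypoxia, against 40 and 21 without it. Other settings gave 12 (quantile normalization) and 19 (without the normoxia input library of KO-84) in normoxia. In hypoxia they gave 2 (pseudocount 0.1), 7 (pseudocount 5 and no trend), 12 (no filter), 4 (quantile normalization) and 1 (only the libraries compared). Leaving out 1 animal gave 0 to 25 genes in normoxia and 0 to 8 in hypoxia, 0 without KO-84 in both. All other comparisons had 0 passing genes. With no filter there were 2 for hypoxia in input of controls, 13 for hypoxia in TRAP of controls, 7 for the hypoxia change of the TRAP to input ratio, and between labels 1 and 1 in normoxia and hypoxia input and 2 and 10 in normoxia and hypoxia TRAP. Only the libraries compared gave 1 for hypoxia in input of controls and 1 between labels in hypoxia input, and the fit without the normoxia input library of KO-84 gave 1 there too. A pseudocount of 5 gave 1 between labels in each TRAP comparison, and 0.1 gave 1 for the TRAP interaction. Leaving out 1 animal gave 0 to 1 for hypoxia in input over all animals and in knockout-labelled animals, and between labels 0 to 2 in normoxia input, 0 to 1 in normoxia TRAP and 0 to 2 in hypoxia TRAP. The cause of these moves was not tested. No paired analysis was possible between the genotype labels because they share no animal. TPM give no depth.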
